A study of Mus musculus with 2 samples.

Results

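Ovol2 regions with another Ovol2 region close by on the same chromosome were described here. A region counted as clustered when the gap between its edge and the nearest other Ovol2 region was under 100 kb, and regions joined by such gaps formed 1 cluster. The rule chose 324 of the 1338 Ovol2 regions, or 24.2% (exact binomial 95% interval 21.9 to 26.6%), in 148 clusters. The other 1014 regions are called isolated. The regions come from chromatin immunoprecipitation followed by sequencing (ChIP-seq) of HC11 cells, a mouse mammary epithelial line of BALB/c origin. The cells were untreated, at passages 4 to 7, in medium with insulin (5 micrograms per mL), EGF (10 micrograms per mL) and 10% FBS. A custom antibody against mouse Ovol2 and a commercial control IgG gave 1 library each, with lists of 1338 and 1045 regions. Without replicates no difference below carries a test, the regions of 1 list share a library and a caller, and intervals cover counting error only. Neither list holds read counts, so the sequencing depth behind a region is unknown.

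Ovol2 belongs to the OVO family of zinc finger transcription factors and is present in many epithelia. It acts largely as a repressor and is known for restraining the passage of epithelial cells to a mesenchymal state, in the mammary gland among other tissues. A transcription factor often occupies several sites around the same locus, such as a promoter and distal enhancers, so its regions can lie near each other. Coordinates below are in mm9 and counted from 1. No mm9 sequence or gene annotation was used here, so the regions are given by position and length, without genes, exons or start sites, and no sequence is printed.

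Most clusters were pairs. Of the 148 clusters, 128 held 2 regions (86.5%, exact binomial 95% interval 79.9 to 91.5%), 14 held 3, 5 held 4 and 1 held 6. The 20 clusters of 3 or more together held 68 regions. They lay on chromosomes 7 and 11 (3 each), 1, 8, 10, 12 and 17 (2 each) and 2, 4, 6 and 19 (1 each). A pair spanned 37.0 kb in the median (interquartile range 13.6 to 70.3 kb), and a cluster of 3 or more 107 kb (81.2 to 115 kb). The whole range ran from 1.64 to 233 kb. Within these spans the called regions covered little, with a median of 4.27% of the bases (interquartile range 2.74 to 10.7%). The clustered regions covered 313 kb in all, or 25.1% of the bases in the Ovol2 list, close to their share of its regions.

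The limit of 100 kb did not fall at a break in the spacing. The 176 gaps inside clusters had a median of 36.1 kb (interquartile range 13.2 to 66.5 kb). Of these, 12 were under 1 kb, 24 were from 1 to 10 kb and 42 from 10 to 30 kb. In steps of 20 kb, the counts of gaps were 57, 35, 32, 26 and 26 up to 100 kb. The next 5 steps, up to 200 kb, held 27, 26, 24, 22 and 20 gaps. The count was thus highest for gaps under 20 kb and changed little around 100 kb. The widest gap taken in was 99.9 kb, on chromosome 3 between the region from 8664712 to 8665914 and the region from 8765808 to 8766243. The next widest were 98.1 kb on chromosome 4, before the region that starts at 43506171, and 96.9 kb on chromosome 6, before the region that starts at 17120405. Just outside the limit were gaps of 100.2 kb on chromosome 7 after 26466478, 100.3 kb on chromosome 1 after 87950467 and 100.9 kb on chromosome 13 after 23524246. The 4 regions beside the first 2 of these gaps counted as isolated.

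**Figure D1:**
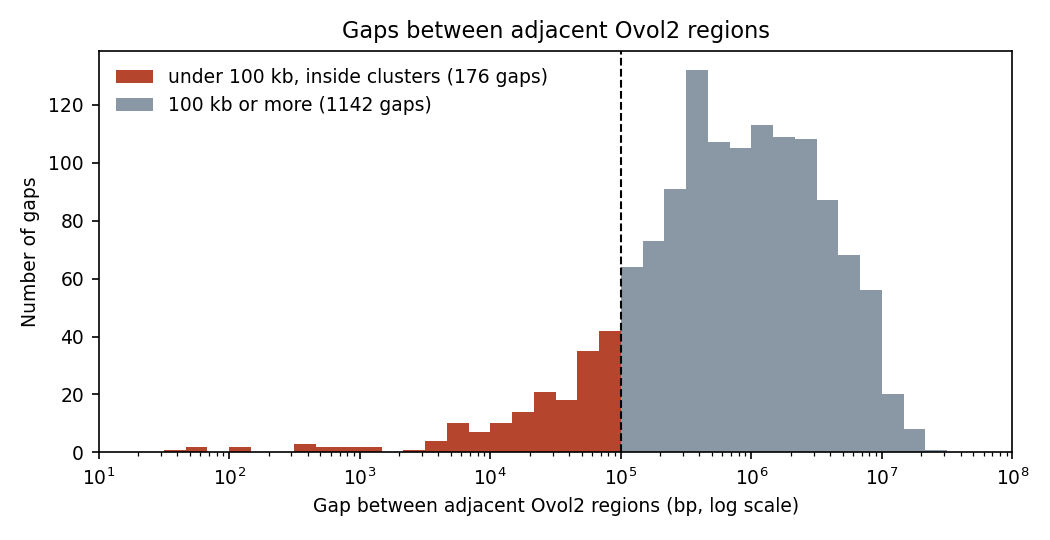
Number of gaps between adjacent Ovol2 regions by gap size (bp, log scale), with the 176 gaps under 100 kb in red, the 1142 others in grey and the limit of 100 kb as a dashed line. The red gaps form the lower end of the distribution, without a trough at the limit.

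Past their edges, clusters stood at varied distances from further regions. The distance from the edge of a cluster to the next Ovol2 region outside it had a median of 790 kb (exact 95% interval of the median 584 to 1021 kb, 289 edges), beside 1042 kb (902 to 1207 kb, 871 gaps) between adjacent isolated regions. A further region 100 to 200 kb from an edge was found at 32 clusters (21.6%, exact binomial 95% interval 15.3 to 29.1%). At 34 clusters (23.0%, 16.5 to 30.6%) no further Ovol2 region lay within 1 Mb on either side. The rule requires all these distances to exceed 100 kb, so they describe the clusters and test nothing. A gap between neighbouring clusters was counted at both its ends, so the 289 edges are not all separate gaps.

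The largest cluster held 6 regions on chromosome 7, from 30875145 to 31107784, a span of 233 kb. Its first region ran from 30875145 to 30876222 (1078 bp), and the second followed after 30.3 kb, from 30906478 to 30907395 (918 bp). The third ran from 30953918 to 30954734 (817 bp), 46.5 kb further on. The fourth lay 24.8 kb beyond it, from 30979487 to 30980073, and with 587 bp was the shortest of the 6. After the widest gap, 84.8 kb, came the region from 31064854 to 31065696 (843 bp), and 41.3 kb later the last, from 31107013 to 31107784 (772 bp). Their median length, 830 bp, was below that of the list, so this cluster had many regions but none of unusual length. The nearest Ovol2 region before it was 105.7 kb away, just past the limit. With gaps under 200 kb chained, the cluster grew to 8 regions, starting at 30691348, and no other cluster then reached 6.

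The cluster of 4 regions on chromosome 11, from 120477976 to 120594620, held the longest clustered regions. The first 3 measured 3875, 3461 and 3131 bp and stood 9.29 and 8.70 kb apart, and the last, of 1766 bp, followed after 86.4 kb. Together they covered 12233 bp, or 10.5% of the span of 117 kb. The next most covered cluster had 5015 bp, the 6 regions on chromosome 7. An IgG region of 207 bp (score 52.37 in the authors' list) lay inside the span, from 120497916 to 120498122, and overlapped no Ovol2 region. A cluster of 3 stood 266 kb before it on the same chromosome, from 120093981 to 120212203, with regions of 1330, 1200 and 2056 bp. These 2 clusters held 7 regions, none shorter than 1200 bp.

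The other 4 clusters of 4 regions differed in spacing and in how far they stood from the rest of the list. On chromosome 8 the regions from 97227731 to 97312748 measured 1652, 1146, 1051 and 927 bp, with gaps of 61.5, 17.4 and 1.42 kb. That cluster was remote, with the nearest other Ovol2 regions 2347 kb before and 10537 kb after it. On chromosome 12, from 114034956 to 114136271, the lengths were 737, 822, 1112 and 766 bp and the gaps 6.23, 63.8 and 27.9 kb. It closed the chromosome's list, with no Ovol2 region after it and the nearest before it 4004 kb away.

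On chromosome 17 a region of 2015 bp, from 35973154 to 35975168, was followed after 2.77 kb by one of 874 bp, after 55.0 kb by one of 1006 bp and after 96.4 kb by one of 620 bp. The last of these gaps was the fourth widest inside any cluster, and a limit of 50 kb leaves only the first pair. On chromosome 19, from 5444646 to 5561494, the lengths were 511, 871, 635 and 1397 bp and the gaps 44.6, 19.9 and 49.0 kb. Another Ovol2 region lay 163 kb after it. All 4 regions of the chromosome 8 cluster were above the median length of isolated regions (882 bp), while the clusters on chromosomes 12, 17 and 19 each had regions above and below it. The nearest IgG regions were 236 kb or more from them.

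**Figure D2:**
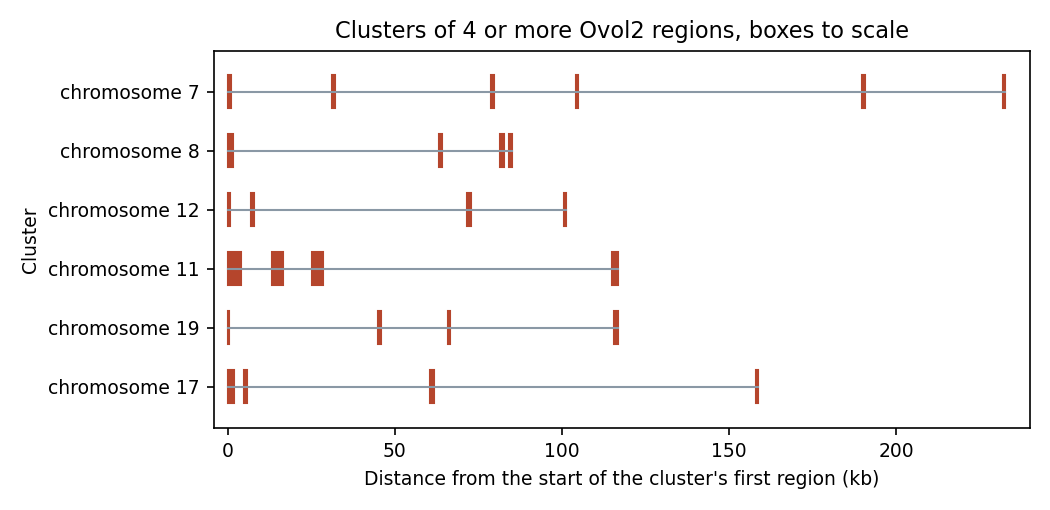
The 6 clusters of 4 or more Ovol2 regions, each on its own row, with distance from the start of its first region (kb) on the x axis and called regions as red boxes drawn to scale. The chromosome 7 cluster spreads over 233 kb, and the first 3 boxes on chromosome 11 are the widest.

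At the other end of the spacing were regions that almost touched. The smallest gap was 41 bp, on chromosome 7 between the region from 73204304 to 73205533 (1230 bp) and that from 73205575 to 73206365 (791 bp). A gap of 54 bp separated regions of 1127 and 461 bp on chromosome 3, from 51080031 to 51081672. On chromosome 17 a gap of 60 bp lay between regions of 741 and 1098 bp, from 87844842 to 87846740, which formed a cluster of 3 with a region 67.0 kb before them. Gaps of 100 bp on chromosome 15 (80541078 to 80543225, regions of 1013 and 1035 bp) and of 107 bp on chromosome 8 (85965148 to 85967220, regions of 1117 and 849 bp) came next. In all, 12 pairs stood under 1 kb apart.

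The 24 regions beside these 12 gaps had a median length of 799.5 bp (exact 95% interval of the median 741 to 1013 bp), so they were of ordinary size for the list. From the start of the first to the end of the second region, the pairs measured 2067.5 bp in the median, and all 12 of 12 reached 1500 bp (exact binomial 95% interval 73.5 to 100%). Counted as 1 region each they would be among the long ones, since only 3.66% of all Ovol2 regions reached 1500 bp. Both regions of a pair add to that outer length, so a large value follows from the count. Whether each such pair is 1 continuous stretch of enrichment was not tested, as the lists hold no coverage.

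Clustered regions were about as long as isolated ones. Their median length was 912 bp (exact 95% interval of the median 872 to 956 bp, interquartile range 764.75 to 1088.75 bp), and that of isolated regions 882 bp (864 to 904 bp, interquartile range 727 to 1071 bp). The intervals overlapped, and the order of the medians turned under smaller gap limits. It held with gaps under 200 kb (910.5 bp clustered and 877.5 bp isolated). With gaps under 50 kb the medians were 882.5 bp for clustered and 887.5 bp for isolated regions, and with gaps under 10 kb 885 and 887 bp. Chromosome by chromosome, the clustered median was higher on 12 and lower on 8 of the 20 chromosomes.

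The 5 longest clustered regions lay on chromosomes 11 and 9. They were the 3 regions of over 3 kb on chromosome 11 described above, the region of 2436 bp on chromosome 9 from 13630372 to 13632807, and the region of 2056 bp on chromosome 11 from 120210148 to 120212203. The 5 shortest measured from 428 to 465 bp. The shortest lay on chromosome 10 (92771844 to 92772271). Chromosome 3 held 2 of them (8765808 to 8766243 and 51081212 to 51081672), chromosome 12 held 1 (17265251 to 17265711) and chromosome 2 held 1 (90326482 to 90326946). No clustered region was shorter than 428 bp, while isolated regions ranged from 285 to 8620 bp.

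Long regions made up a larger share of clustered than of isolated regions, with overlapping intervals, and the shares lay closer together without chromosome 11. Of the clustered regions 18 reached 1500 bp (5.56%, exact binomial 95% interval 3.33 to 8.64%), and of the isolated ones 31 (3.06%, 2.09 to 4.31%), against 3.66% of all regions. Without chromosome 11 the counts were 9 of 300 (3%, 1.38 to 5.62%) and 23 of 937 (2.45%, 1.56 to 3.66%). Lengths under 500 bp were found for 9 clustered (2.78%, 1.28 to 5.21%) and 50 isolated regions (4.93%, 3.68 to 6.45%), with overlapping intervals. For these short regions the counts without chromosome 11 were 9 of 300 (3%, 1.38 to 5.62%) and 49 of 937 (5.23%, 3.89 to 6.85%). Across the length range, 19.9% of the regions of up to 742 bp were clustered (15.8 to 24.5%). The share was 25.4% (20.9 to 30.5%) from 743 to 887 bp, 26.1% (21.5 to 31.2%) from 888 to 1079 bp and 25.4% (20.9 to 30.5%) above that.

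Length did not rise or fall steadily with the gap to the nearest region. The median was 799.5 bp for the 24 regions with a neighbour under 1 kb away, 893 bp for 47 regions at 1 to 10 kb, 880 bp for 81 at 10 to 30 kb and 948 bp for 172 at 30 to 100 kb. Among isolated regions it was 900.5 bp for 328 at 100 to 300 kb, 887 bp for 398 at 300 to 1000 kb and 856 bp for 288 farther away. Adjacent classes had overlapping exact 95% intervals. By size, regions in pairs had a median of 891 bp (exact 95% interval of the median 850 to 951 bp) and those in clusters of 3 or more 967.5 bp (874 to 1074 bp). Without chromosome 11 the latter was 940 bp (841 to 1051 bp).

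**Figure D3:**
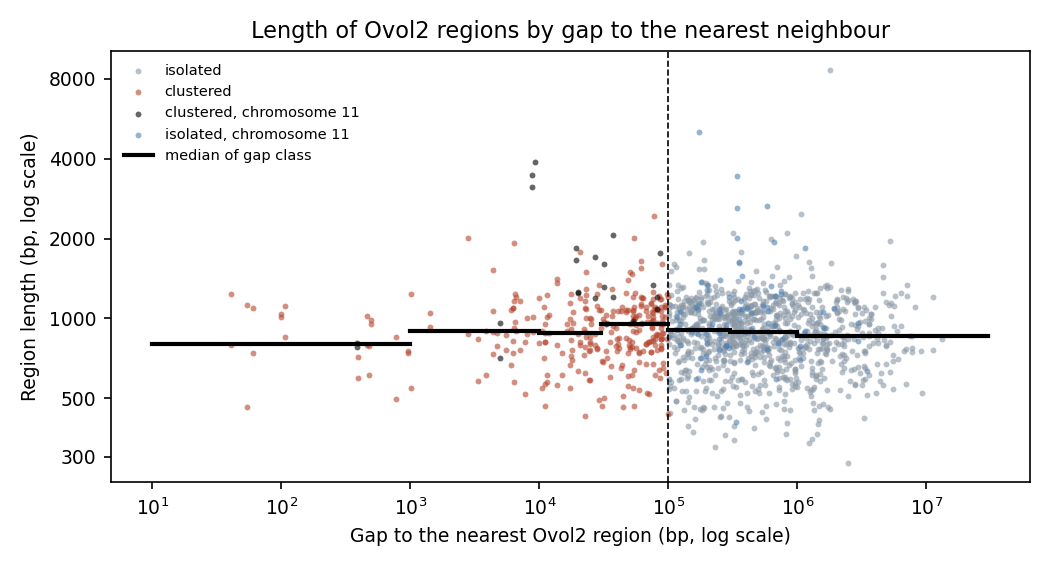
Length of each Ovol2 region (bp, log scale) by the gap to its nearest neighbour (bp, log scale), clustered regions in red, isolated in grey, those of chromosome 11 in black (clustered) and blue (isolated). Thick lines are the medians of the 7 gap classes, from 799.5 to 948 bp, and the dashed line is the limit of 100 kb.

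Of the 20 chromosomes, chromosome 11 had the widest difference between the clustered and isolated median lengths, 294.5 bp. Its 24 clustered regions had a median of 1249.5 bp (exact 95% interval of the median 974 to 1709 bp), beside 955 bp (891 to 1068 bp) for its 77 isolated regions. From 110 Mb onwards it held 13 clustered regions in 5 clusters, with a median of 1661 bp (1254 to 3131 bp) and none under 1200 bp, and 8 of the 13 reached 1500 bp. The 10 isolated regions of the same segment had a median of 1361.5 bp (995 to 3438 bp) and ranged from 955 to 5059 bp, and 4 of the 10 reached 1500 bp. Below 110 Mb the 11 clustered regions had a median of 961 bp (778 to 1208 bp) and the 67 isolated ones 918 bp (876 to 1043 bp). Below 110 Mb 1 of the 11 clustered and 4 of the 67 isolated regions reached 1500 bp. The longest of these isolated regions, of 2618 bp, and another of them lay in the last Mb before 110 Mb. A slightly lower limit would move both into the distal isolated set and bring it closer to the clustered one. The limit of 110 Mb was chosen with earlier results known, and other limits were not tested. Without chromosome 11 the genome-wide medians were 888.5 bp clustered and 876 bp isolated.

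By Pearson's r, the lengths of neighbours inside a cluster were related when chromosome 11 was included and hardly so without it. By rank, over all chromosomes, the relation was about as weak as for regions farther apart. Over the 176 adjacent pairs, Pearson's r of the lengths was 0.56 and Spearman's rho 0.12. Over the 1142 adjacent pairs at 100 kb or more, r was 0.17 and rho 0.12. Without chromosome 11, r was 0.022 and rho -0.0083 over 162 close pairs, and r 0.08 and rho 0.09 over 1056 wide pairs. The 14 close pairs on chromosome 11 gave r = 0.88 and rho = 0.81. Without regions over 2 kb, 169 close pairs on all chromosomes gave r = 0.12 and rho = 0.051. Adjacent pairs share a chromosome segment, and regions in clusters of 3 or more enter more than 1 pair, so these coefficients only describe the list. The longer region of a close pair was 1.28 times the shorter in the median (exact 95% interval of the median 1.22 to 1.35), beside 1.30 times (1.28 to 1.32) for wide pairs. At least 1.5 times was found for 51 close pairs (29.0%, exact binomial 95% interval 22.4 to 36.3%) and 342 wide pairs (29.9%, 27.3 to 32.7%).

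The clustered share of regions varied between chromosomes. It was highest on chromosome 19, with 20 of 47 regions (42.6%, exact binomial 95% interval 28.3 to 57.8%), and on chromosome 7, with 38 of 95 (40.0%, 30.1 to 50.6%). On these 2 of the 20 chromosomes the whole interval lay above the genome-wide 24.2%. Chromosomes 9 (24 of 73, 32.9%) and 3 (22 of 67, 32.8%) followed, with intervals that included it. The lowest shares were on chromosomes 18 (4 of 33, 12.1%), 15 (8 of 57, 14.0%) and 1 (16 of 102, 15.7%). The interval of chromosome 1 reached 24.2%, and those of the others went past it. All these intervals treat regions as independent, whereas a region is clustered only together with its neighbour. The clustered regions of chromosome 19 formed 9 clusters and those of chromosome 7 formed 16. The intervals are therefore too narrow, and whether these chromosomes differ from the rest was not tested. Chromosomes 7 and 19 together held 58 of the 324 clustered regions (17.9%, 13.9 to 22.5%) and 84 of the 1014 isolated ones (8.28%, 6.66 to 10.2%).

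These shares followed the density of regions only in part. Density was counted per 10 Mb of the span between the first and last region of either list. Chromosome 11 was the densest, with 8.51 Ovol2 regions per 10 Mb, yet had a clustered share of 23.8%. Chromosome 19 was nearly as dense, at 8.16 per 10 Mb, and had the highest share. Chromosome 7 had 6.40 regions per 10 Mb, close to the 6.31 of chromosomes 5 and 17, where the shares were 19.1% and 27.3%. X had the lowest density, 1.85 per 10 Mb, and 6 of 30 clustered (20%). Over the 20 chromosomes, Spearman's rho between share and density was 0.48 and Pearson's r 0.47, and without chromosomes 11 and X 0.47 and 0.62. Both measures come from the same positions, so some relation is built in.

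Chromosome 19 held 9 clusters, or 1.56 per 10 Mb, the most of any chromosome by that measure. Chromosome 7 held 16 (1.08 per 10 Mb), chromosome 9 held 12 (0.994) and chromosome 11 held 10 (0.843). X held 3 (0.185 per 10 Mb) and chromosome 18 held 2 (0.240). The clusters of chromosome 19 lay mostly near its start, with 6 of the 9 between 3707438 and 10640236. Its clustered regions had a median length of 910 bp and its isolated ones 904 bp, and those of chromosome 7 had 884 and 839 bp. On the 2 chromosomes with the highest clustered shares, the clustered medians thus lay above the isolated ones. Whether the lengths differed there was not tested.

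**Figure D4:**
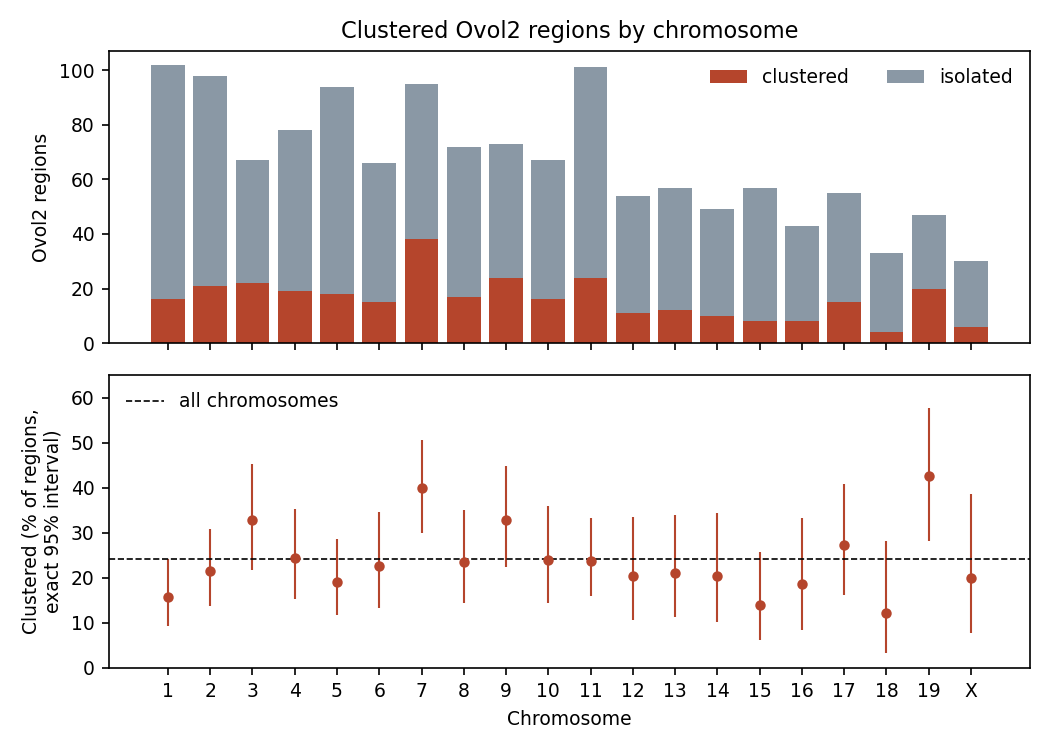
Upper panel, number of clustered (red) and isolated (grey) Ovol2 regions on each chromosome; lower panel, clustered share of the regions (%) with its exact 95% interval and the genome-wide 24.2% as a dashed line. Chromosomes 7 and 19 lie above the line with their whole interval, but the intervals treat regions as independent and are too narrow for clustered ones.

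Along the chromosomes, the first 20% of the span had the highest clustered share, 78 of 258 regions (30.2%, exact binomial 95% interval 24.7 to 36.2%). The following 20% steps had 48 of 221 (21.7%), 64 of 265 (24.2%), 54 of 271 (19.9%) and 80 of 323 (24.8%). Without chromosomes 7 and 19 the first step was 23.0% (17.4 to 29.5%), beside 22.2% (19.9 to 24.7%) for all regions on the remaining chromosomes. Chromosomes 7 and 19 had the highest clustered shares and were picked after the data were seen. Leaving them out lowers the overall share in any case, and what the high first step rests on was not tested. The median position was 47.8% of the span for clustered regions (exact 95% interval of the median 43.8 to 56.3%) and 56.5% (53.8 to 58.5%) for isolated ones.

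Clustered regions were spread through the deposited order of the list, whose meaning is not given in the sources used here. The median line was 659 for clustered regions (exact 95% interval of the median 547 to 730) and 672 for isolated ones (636 to 714). The order of these medians turned with gaps under 50 kb (708.5 and 665.5) and under 10 kb (723 and 665). Of the first 669 lines 164 were clustered (24.5%, exact binomial 95% interval 21.3 to 27.96%), and of the last 669 lines 160 (23.9%, 20.7 to 27.3%). In 10 successive blocks of lines, the share ran from 19.4% (lines 536 to 669) to 29.9% (lines 135 to 268), with no steady course. Within classes of length, the median line of clustered and isolated regions was 800 and 892.5 for lengths up to 742 bp. It was 767 and 707 from 743 to 887 bp, 520 and 591 from 888 to 1079 bp, and 477 and 498 above that. All 4 pairs of exact 95% intervals overlapped, but the intervals are too wide to show that both kinds stood at similar places at like length.

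Neighbours on the chromosome were not neighbours in the list. Adjacent clustered regions stood 356.5 lines apart in the median (exact 95% interval of the median 308 to 414), beside 390 lines (360 to 425) for adjacent regions 100 kb or more apart. Only 3 of the 176 close pairs were within 10 lines of each other (1.70%, exact binomial 95% interval 0.353 to 4.90%), against 1.40% (0.803 to 2.27%) of wide pairs. The closest in the list were the regions of 833 and 839 bp on chromosome 6 from 8209547 to 8298109, 3 lines apart. Both regions of a close pair were in the first 669 lines in 50 cases (28.4%, 21.9 to 35.7%), against 24.6% (22.1 to 27.2%) of wide pairs. Of pairs under 10 kb apart, 5 of 36 were (13.9%, 4.67 to 29.5%). In 77 close pairs 1 region was in the first 669 lines and 1 after them (43.75%, 36.3 to 51.4%), against 50.4% (47.4 to 53.3%) of wide pairs. Spearman's rho of the places was 0.06 for close and -0.01 for wide pairs, and Pearson's r had the same values to 2 decimals. The 6 regions on chromosome 7 show the spread, at lines 142, 231, 1332, 379, 771 and 1065.

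**Figure D5:**
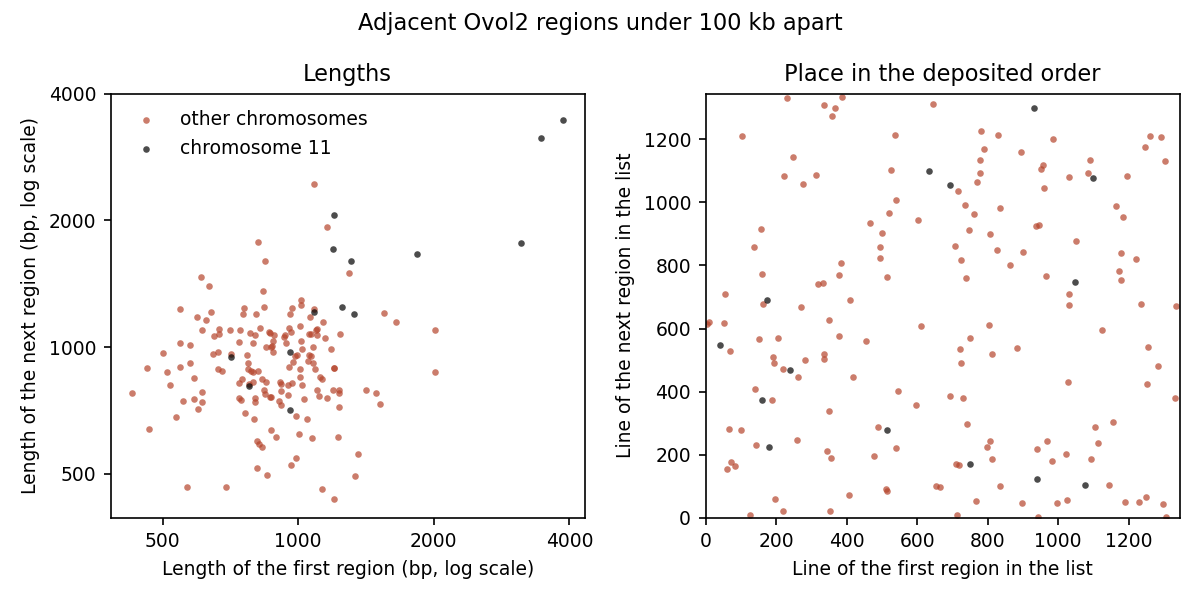
Each point is 1 of the 176 pairs of adjacent Ovol2 regions under 100 kb apart, with chromosome 11 in black. The left panel plots the length of the next region against that of the first (bp, log scales), where the longest pairs are black, and the right panel plots their lines in the deposited list, where the points fill the square.

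The control list was not used by the rule, and its regions were compared with the clustered and isolated regions. Whether IgG served as control in calling the Ovol2 list is not given in the sources used here. Overlap with IgG therefore cannot be read as a measure of background. Of the 324 clustered regions 3 shared at least 1 bp with an IgG region (0.926%, exact binomial 95% interval 0.191 to 2.68%), as did 3 of the 1014 isolated regions (0.296%, 0.0611 to 0.862%), against 0.448% of all Ovol2 regions. Within 1 kb there were 4 and 3 (0.523% of all), within 10 kb 8 and 14 (1.64% of all) and within 100 kb 32 and 84 (8.67% of all). The last counts are 9.88% of clustered (6.85 to 13.7%) and 8.28% of isolated regions (6.66 to 10.2%). With clusters formed by gaps under 50 kb the order turned, with 8.42% of clustered and 8.71% of isolated regions. The 32 clustered regions belonged to only 17 clusters, so they are not independent counts. At each distance the intervals of clustered and isolated regions overlapped.

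The 3 clustered regions that overlapped IgG belonged to 3 different clusters. The region on chromosome 4 from 43506171 to 43507529 (1359 bp) was the middle of a cluster of 3 and held an IgG region of 107 bp (score 55.89). The region on chromosome 6 from 136752483 to 136753332 (850 bp) had its neighbour 23.1 kb after it and held an IgG region of 126 bp (score 55.8). The region on chromosome 9 from 36575022 to 36575860 (839 bp), 40.2 kb after its neighbour, held an IgG region of 109 bp (score 62.51). Scores in the IgG list run from 50.01 to 3100. In each case the other regions of the cluster overlapped no IgG region.

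Some clusters had an IgG region inside their span. There were 7 such clusters of 148 (4.73%, exact binomial 95% interval 1.92 to 9.50%), with 1 IgG region each. Besides the 3 just named and the chromosome 11 cluster of 4, they were pairs on chromosome 10 (80630531 to 80656138), chromosome 18 (61785416 to 61868037) and chromosome 5 (122821799 to 122898179). The IgG region inside the chromosome 5 pair lay 628 bp from an Ovol2 region. Spans of like size outside clusters were not counted, so whether 7 of 148 is few or many was not tested. The IgG list itself was clustered in another form. Under the same rule 320 of its 1045 regions (30.6%, 27.8 to 33.5%) were clustered, in 64 clusters of up to 67 regions. Of these 25 (39.1%, 27.1 to 52.1%) held 3 or more, against 13.5% (8.45 to 20.1%) of the Ovol2 clusters. Whether both lists were called alike is not given in the sources used here, and its part in this difference was not tested.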

How the data were processed

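ChIP-seq regions of 2 libraries from HC11 cells were analysed. Per the submitters' processing notes, Bowtie 0.12.8, SAMtools 0.1.18 and bedtools 2.15.0 are listed, with mm9 as the build and with no role or order. The Ovol2 list deposited by the authors holds chromosome, start and end only. The IgG list deposited by the authors also has a score per region, on a scale that no header names, and its regions are named as MACS peaks. Which caller and threshold made the Ovol2 list, and whether IgG was its control, is not given in the sources used here. Libraries were amplified with 16 PCR cycles, per the labels' protocols.

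Regions were sorted by position, gaps taken as next start minus end, and gaps under 100 kb chained. Shares carry exact (Clopper-Pearson) 95% intervals and medians exact order-statistic 95% intervals, which treat regions as independent. No test between groups was made, because there was 1 library per antibody and the rule uses the same list. Regions named are all members of clusters of 4 or more, the 5 smallest gaps, the 5 longest and 5 shortest members, 3 gaps on each side of the limit, members overlapping IgG, and the 5 clusters of longest summed length. Others (the pair closest in the list, the clusters of chromosome 19, the clusters with IgG inside) were named after their values were seen. The segment from 110 Mb on chromosome 11, the members and the lists were chosen with earlier results of these data known. Chaining was tested on simulated lists. Genes and motifs were planned only for an mm9 reference and not analysed here. Python 3.11.15, numpy 2.4.6, pandas 2.3.3, scipy 1.17.1 and matplotlib 3.10.9 were used.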

Additional observations from a re-analysis of the deposited data

How the results depend on the processing

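No paired analysis was possible because each antibody had 1 library, and no replicate could be left out. Counts followed the gap limit by construction. Clustered regions, clusters and clusters of 3 or more numbered 324, 148 and 20 as reported. They were 71, 35 and 1 with gaps under 10 kb, 202, 96 and 8 under 50 kb, and 522, 227 and 49 under 200 kb. Among the longer regions alone (671) they were 103, 48 and 5, and among the first 669 lines 101, 48 and 5, where fewer regions enter. Distance between centres, joining of regions under 1 kb apart and leaving out chromosome 11 kept these counts within 1.5 times. Among the first 669 lines the median length was 1003 bp clustered and 953.5 bp isolated. Under the other alternatives run, median lengths and places stayed inside the intervals reported, though clustered and isolated regions changed order in both with gaps under 10 and 50 kb. For adjacent lengths, Spearman's rho was 0.12 as reported, -0.0083 without chromosome 11 and 0.051 without regions over 2 kb, and Pearson's r 0.56, 0.022 and 0.12. The share of clustered and isolated regions near IgG was 9.88% and 8.28% within 100 kb, 2.47% and 1.38% within 10 kb, 1.23% and 0.296% within 1 kb, and 0.926% and 0.296% by overlap. With IgG regions of the higher scores alone, it was 3.70% and 3.16% within 100 kb, and with gaps under 50 kb the order turned (8.42% and 8.71%). The clustered share in the first 20% of the span fell from 30.2% to 23.0% without chromosomes 7 and 19. Alternatives on genes were not run. Unknown depth limits every statement on regions missing from a list, and a missing neighbour leaves a region isolated.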
